A study of Mus musculus with 2 samples.

Results

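Bone morphogenetic proteins (BMPs) and their receptors were followed through the endothelium and the wall cells of the mouse abdominal aorta with 10 genes, chosen by symbol in both count matrices from 33696 genes in all. The members are the ligands *Bmp4* and *Bmp6*, the receptors *Bmpr2* and *Acvrl1* with the co-receptor *Eng*, the inhibitor-of-DNA-binding genes *Id1*, *Id2* and *Id3*, and the inhibitory SMAD genes *Smad6* and *Smad7*. The study compared the suprarenal abdominal aorta of mice given angiotensin II plus salt and of controls at day 28, by droplet-based single-cell RNA sequencing with unique molecular identifiers (UMIs), which count captured RNA molecules. All mice were male C57BL/6J of 5 months of age, per the study's methods. Control mice received normal saline, and AngII+HS mice received angiotensin II from implanted osmotic minipumps together with NaCl and KCl in the drinking water. Each condition was 1 library. According to the design text, tissue of 5 mice was pooled per sample, but the extraction protocol mentions 1 mouse for the control and 2 for the treated aortas. Mice within a pool cannot be told apart, so no spread between animals could be measured and no test between conditions was made.

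BMP ligands are secreted dimers that bind a complex of type I and type II serine/threonine kinase receptors. BMPR2 is a type II receptor, ALK1 (encoded by *Acvrl1*) is a type I receptor largely restricted to endothelium, and endoglin (encoded by *Eng*) is a co-receptor that presents ligand to ALK1. The activated complex phosphorylates receptor-regulated SMAD proteins, which enter the nucleus and switch on *Id1*, *Id2* and *Id3*. The ID proteins lack a DNA-binding region and hold back basic helix-loop-helix transcription factors. SMAD6 and SMAD7 are induced by the same signal and shut it down. In humans, loss of *ENG* or *ACVRL1* causes hereditary hemorrhagic telangiectasia, and loss of *BMPR2* predisposes to pulmonary arterial hypertension.

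The promoters of *Id2*, *Id3* and *Smad6* are shown because these are direct transcriptional readouts of the receptors. Each window runs from 250 bases before the start of the gene to 10 bases after it, from RefSeq on GRCm38.p6. A window was matched for 7 of the 10 members (*Bmp4*, *Bmp6*, *Bmpr2*, *Eng*, *Id2*, *Id3* and *Smad6*). None was matched for *Acvrl1* and *Id1*. Windows on the chromosome of *Smad7* were left out of the search for members, so a match for that gene was not looked for. The motif shares over all windows given below had no such limit. Capitals mark GGCGCC, a GC-rich SMAD-binding motif, or GTCTAGAC, the palindromic SMAD-binding element that contains GTCT. Both motifs read the same on either strand.
Id2, minus strand, chr12:25096083-25096342: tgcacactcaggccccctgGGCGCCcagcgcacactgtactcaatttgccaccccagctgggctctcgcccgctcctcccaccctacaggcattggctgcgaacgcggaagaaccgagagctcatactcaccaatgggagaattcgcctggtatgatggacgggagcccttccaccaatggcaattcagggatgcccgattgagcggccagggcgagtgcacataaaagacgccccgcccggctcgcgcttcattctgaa
Id3, plus strand, chr4:136143572-136143831: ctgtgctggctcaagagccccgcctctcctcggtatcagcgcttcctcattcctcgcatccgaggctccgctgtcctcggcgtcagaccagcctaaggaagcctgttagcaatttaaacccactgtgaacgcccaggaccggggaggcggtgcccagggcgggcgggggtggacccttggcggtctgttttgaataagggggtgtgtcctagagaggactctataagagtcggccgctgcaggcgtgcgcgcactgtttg
Smad6, minus strand, chr9:64022050-64022309: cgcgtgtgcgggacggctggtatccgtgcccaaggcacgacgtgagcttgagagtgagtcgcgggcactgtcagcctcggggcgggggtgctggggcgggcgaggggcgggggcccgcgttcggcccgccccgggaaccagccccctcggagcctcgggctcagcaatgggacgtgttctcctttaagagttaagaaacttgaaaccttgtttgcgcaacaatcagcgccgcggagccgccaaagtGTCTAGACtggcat
GGCGCC began 231 bases before the start in *Id2*, and GTCTAGAC began 4 bases before the start in *Smad6* and so spans it. The *Id3* window held neither. Among the other matched members, *Bmpr2* held GGCGCC 105 bases before its start, and *Bmp4*, *Bmp6* and *Eng* held neither motif. Of 32851 promoter windows of this length, 9.96% held GGCGCC and 0.177% held GTCTAGAC, whereas the 4-base core GTCT on either strand was in 84.0%. A match is a match of letters in this window and not a measured binding site.

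There were 11448 barcodes and 86618995 UMIs in the Control library, compared with 24804 and 117146856 for AngII+HS. After filtering and removal of doublets, 10269 Control and 19734 AngII+HS cells remained, with a median of 7274 and 3065.5 UMIs per cell. The recorded barcode lists are as long as the matrix of the opposite library, so matrices were taken as recorded and these lists were not joined. The lists share 67 barcodes. Were the matrices swapped, every direction given here would be the opposite. As recorded, VSMCs were 53.2% of Control and 4.50% of AngII+HS cells, macrophages 4.86% and 22.9%, and neutrophils 0.964% and 23.6%. Cells were clustered and named again from marker genes, because no cell annotation was among the files used, so a name such as arterial VEC stands for cells that resemble that type. The vascular endothelial cells (VECs) gave 486 Control and 378 AngII+HS arterial cells, 143 and 442 capillary cells, and 167 and 354 venous cells. Lymphatic endothelial cells (LECs) numbered 138 and 157, vascular smooth muscle cells (VSMCs) 5464 and 889, and pericyte-like cells 164 and 216.

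The clusters were named from these marker lists, so the sums below describe the named cells and do not test the names. The lists set the pericyte-like cells apart from VSMCs only in part. All 8 VEC markers were detected in the 3 VEC types of both libraries, with a summed level of 5793 to 9178 CPM (UMIs scaled to a total of 1000000 in each cell type and library), against 40.2 to 98.2 CPM in VSMCs and pericyte-like cells. All 7 LEC markers were detected in LECs of both libraries, at 8389 CPM in Control and 14030 CPM in AngII+HS, and at no more than 151 CPM in any VEC type. The pericyte list of the pericyte-like cells summed to 2862 CPM in Control and 6196 CPM in AngII+HS. This sum does not set them apart from VSMCs, since *Rgs5* of that list alone stood at 5369 and 5858 CPM in VSMCs. In pericyte-like cells *Rgs5* was 1513 and 3569 CPM. *Notch3*, also listed, was 635 and 1170 CPM in pericyte-like cells against 58.7 and 52.1 CPM in VSMCs. *Higd1b*, *Ndufa4l2*, *Vtn* and *Pdgfrb* were also higher than in VSMCs in both libraries, with *Ndufa4l2* at 53.0 and 240 CPM against 0.129 and 1.39 CPM. *Kcnj8* and *Abcc9* were lower than in VSMCs in Control only, and *Cspg4* in AngII+HS only. The VSMC list in pericyte-like cells stood at 31434 CPM in Control and 19633 CPM in AngII+HS. The Control value was close to the 28188 CPM of the VSMCs themselves. In AngII+HS all genes of this list but *Actg2* were lower than in VSMCs, with *Acta2* at 8696 against 18125 CPM.

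Levels are UMIs of a gene summed over the cells of a type in 1 library, scaled to the total of those cells (CPM), with exact 95% Poisson intervals. A ratio is AngII+HS over Control on the log2 scale, with an exact 95% interval. These intervals cover counting error only and not differences between mice. A gene was counted as higher or lower in a cell type when its levels differed at least 1.5-fold and it had at least 20 UMIs over both libraries. T and B cells, which should lack most of these genes, served as a measure of free RNA. In them, *Bmp4*, *Bmp6*, *Acvrl1*, *Eng* and *Smad6* stood between 1.07 and 8.32 CPM in either library. *Id2* at 396 and 284 CPM and *Smad7* at 404 and 295 CPM are expressed by lymphocytes, so T and B cells give no background for those genes.

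The members did not move as 1 block. Of 59 ratios with enough UMIs, 28 were at least 1.5-fold, and their directions were split by cell type. In arterial VECs 5 of the 10 members were higher in AngII+HS (*Bmp4*, *Bmp6*, *Eng*, *Id2* and *Smad6*) and 1 was lower (*Acvrl1*), while 14.0% of all 10978 genes with enough UMIs were higher and 12.4% were lower. In capillary VECs no member was higher and 2 were lower (*Bmp6* and *Acvrl1*), against 19.2% of 8678 genes higher and 14.6% lower. In venous VECs 1 member was higher (*Id1*) and 5 were lower (*Bmp4*, *Bmp6*, *Bmpr2*, *Acvrl1* and *Id3*), against 28.8% of 9856 genes higher and 15.2% lower. In LECs 1 member was higher (*Id1*) and 5 were lower (*Bmp4*, *Bmp6*, *Bmpr2*, *Smad6* and *Smad7*), against 20.9% of 8638 genes higher and 11.1% lower. In VSMCs 1 member was higher (*Bmp4*) and 2 were lower (*Acvrl1* and *Id3*), against 12.5% of 15695 genes higher and 18.8% lower. In pericyte-like cells 2 of 9 members were higher (*Bmp6* and *Eng*) and 3 were lower (*Id1*, *Id2* and *Smad6*), against 19.7% of 9214 genes higher and 12.5% lower.

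The median log2 ratio over the members was 0.37 in arterial VECs, beside 0.03 over all genes with enough UMIs. It was -0.28 in capillary VECs, beside -0.01, and -0.43 in venous VECs, beside 0.16. In LECs it was -0.63, beside 0.11 over all genes, and in VSMCs -0.23, beside -0.03. In pericyte-like cells it was -0.10, beside 0.10. The median of the members was thus above that of all genes in arterial VECs and below it in the other 5 cell types. Other scalings shifted every ratio of LECs by up to 0.14 and of pericyte-like cells by up to 0.13 on the log2 scale, and by less than 0.1 elsewhere.

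**Figure D1:**
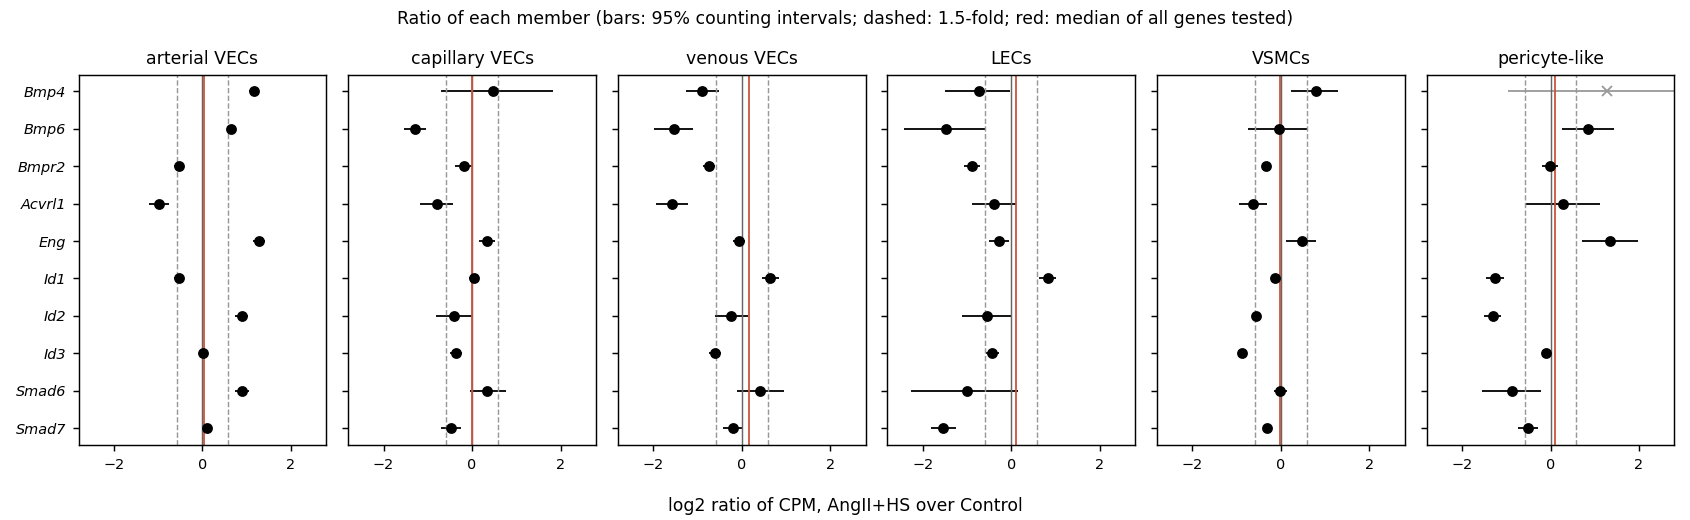
Log2 ratios of the 10 members, AngII+HS over Control, in 6 cell types, with 95% intervals for counting error. Dashed lines mark the 1.5-fold limits and the red line the median of all genes with at least 20 UMIs, and the points of arterial VECs reach from -0.99 for Acvrl1 to 1.28 for Eng while those of LECs lie mostly below 0.

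*Bmp4*, a ligand that endothelium makes under disturbed flow (chromosome 14: 46620250 to 46636745, GRCm39), was an arterial transcript in both libraries. In Control it stood at 376 CPM (interval 353 to 400) in arterial VECs, 117 CPM in venous VECs, 46.9 CPM in LECs and 12.1 CPM in capillary VECs. These 4 levels did not overlap in their counting intervals. The levels of 3.33 CPM in VSMCs and 2.24 CPM in pericyte-like cells were close to the 2.14 CPM of T and B cells. In AngII+HS, arterial VECs reached 838 CPM (799 to 878), 2.23-fold the Control level (log2 ratio 1.16, interval 1.04 to 1.27). After each cell was thinned to 1000 UMIs, 28.2% of arterial cells had a *Bmp4* UMI in Control (24.2 to 32.4%) and 47.4% in AngII+HS (42.1 to 52.7%), against 0.441% and 0.149% of T and B cells. Thinning kept 476 of 486 Control and 363 of 378 AngII+HS arterial cells, and without it the shares were 61.5% and 74.9%. Venous VECs went the other way, with 117 CPM in Control and 62.9 CPM in AngII+HS (log2 ratio -0.89, interval -1.27 to -0.52). LECs showed 46.9 and 28.1 CPM, on 58 and 24 UMIs, with a log2 ratio of -0.74 whose interval reached -0.03. The LEC ratio was within 1.5-fold in 5 alternatives (as small as -0.14 with no doublets removed), and with equal weight per cell the ratio was -0.58 in venous VECs and 0.48 in VSMCs. Capillary VECs held only 8 UMIs in Control and 26 in AngII+HS. In VSMCs the log2 ratio was 0.78, between 3.33 and 5.72 CPM, levels that B cells and neutrophils also reach.

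*Bmp6*, a ligand that liver sinusoidal endothelium uses to regulate iron (chromosome 13: 38529065 to 38684280), was likewise higher in the summed arterial VECs and lower in the sums of the other endothelial types. Arterial VECs held 858 CPM in Control and 1336 CPM in AngII+HS (log2 ratio 0.64, interval 0.56 to 0.72). Capillary VECs held 428 CPM in Control and 176 CPM in AngII+HS, 2.44-fold lower. Venous VECs held 109 and 37.5 CPM, 2.90-fold lower, and LECs 45.3 and 16.4 CPM, on 56 and 14 UMIs, 2.76-fold lower. In venous VECs the 10 arterial markers summed to 4400 CPM in Control (9 detected, *Sema3g* at 0) and 2010 CPM in AngII+HS (10 detected), and their part in the lower *Bmp4* and *Bmp6* of these cells was not tested. The sum is not particular to arterial cells. *Fn1*, *Bgn*, *Eln* and *Mgp* of this list stood at 3902, 2026, 1350 and 4969 CPM in Control VSMCs. *Gja5*, *Sema3g* and *Bmx* were nearly absent there, at 0.717, 0.221 and 0.221 CPM. The intervals of the capillary, venous and LEC log2 ratios of *Bmp6* were -1.53 to -1.04, -1.97 to -1.10 and -2.43 to -0.60. The arterial level was 2.0 times the capillary level in Control and 7.61 times that level in AngII+HS. Pericyte-like cells held 32.1 CPM in Control and 57.7 CPM in AngII+HS (log2 ratio 0.84, interval 0.26 to 1.44), and VSMCs 3.68 and 3.56 CPM, near the T and B cell level of 1.07 and 2.84 CPM. The arterial excess was under 1.5-fold when no doublets were removed (log2 ratio 0.50), as was the pericyte-like one after thinning (0.21) and in its *Kcnj8* subcluster (0.13).

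**Figure D2:**
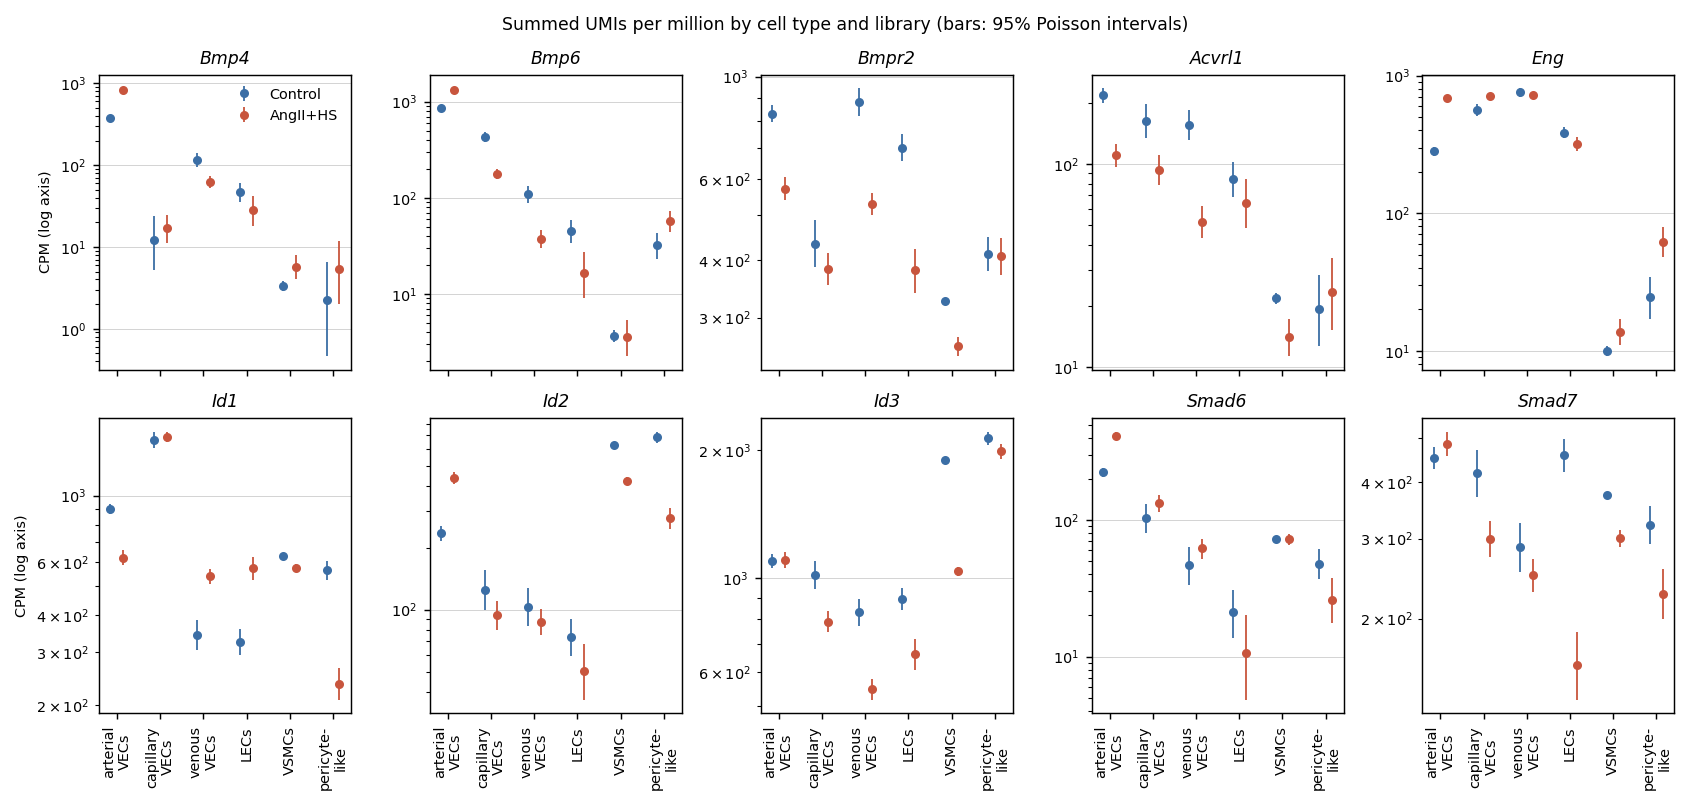
Levels of the 10 members in CPM (log axis) in 6 cell types, Control and AngII+HS side by side, with exact 95% Poisson intervals. Bmp4 and Bmp6 are highest in arterial VECs of both libraries, Eng is lowest of the 4 endothelial types in arterial VECs of Control, and Id3 is highest in pericyte-like cells.

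The receptor genes moved apart from each other. *Acvrl1* (chromosome 15: 101025996 to 101043217) was lower in AngII+HS in all 3 VEC types and in VSMCs. In arterial VECs it stood at 218 CPM in Control (200 to 236) and 110 CPM in AngII+HS (96.1 to 125), a log2 ratio of -0.99 with an interval of -1.21 to -0.76. In capillary VECs it stood at 163 and 93.4 CPM (log2 ratio -0.80, interval -1.17 to -0.43), and in venous VECs at 155 and 51.9 CPM, 2.99-fold lower (interval of the log2 ratio -1.95 to -1.22). Counting intervals of the 2 libraries did not overlap in any of these 3 types. The thinned share of cells with a UMI was 19.5% and 10.7% in arterial VECs and 13.3% and 5.34% in venous VECs, again with intervals apart, whereas the 12.1% and 8.40% of capillary VECs overlapped. LECs held 84.1 and 64.4 CPM, a log2 ratio of -0.39 whose interval of -0.88 to 0.10 holds 0. VSMCs held 21.8 and 14.1 CPM (log2 ratio -0.63, interval -0.95 to -0.32). This call was close to the limit and was lost in 5 alternatives (-0.44 with double the doublets removed), and the capillary ratio was -0.55 after thinning. Pericyte-like cells held 19.4 and 23.4 CPM on 26 UMIs in each library.

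*Eng* (chromosome 2: 32535543 to 32574661) was higher in arterial VECs and within 1.5-fold in the rest of the endothelium. In Control it was lowest in arterial VECs, at 282 CPM (262 to 303), against 384 CPM in LECs, 561 CPM in capillary VECs and 753 CPM in venous VECs. In AngII+HS arterial VECs held 683 CPM (648 to 720), and the levels of capillary VECs at 707 CPM and venous VECs at 723 CPM had overlapping intervals with it and with each other in the order of levels. The arterial log2 ratio was 1.28 (1.15 to 1.41), a 2.42-fold difference, and the thinned share of cells went from 22.3% (18.6 to 26.3%) in Control to 43.8% (38.6 to 49.1%) in AngII+HS. The log2 ratio was 0.33 in capillary VECs (0.16 to 0.51), -0.06 in venous VECs (-0.19 to 0.07) and -0.27 in LECs (-0.49 to -0.05). Pericyte-like cells held 24.6 CPM in Control and 62.2 CPM in AngII+HS (log2 ratio 1.33, interval 0.72 to 1.98), on 33 and 69 UMIs. The list of 8 VEC markers in these cells stood at 58.3 and 98.2 CPM with 7 and 8 genes detected (*Egfl7* at 0 in Control). Most of that difference was *Emcn*, at 1.49 and 35.1 CPM. *Cdh5*, *Egfl7*, *Tie1* and *Ptprb* were also higher, whereas *Pecam1* (46.3 and 37.8 CPM), *Kdr* and *Vwf* were lower. The part of this list in the *Eng* difference was not tested.

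*Bmpr2* (chromosome 1: 59802544 to 59918173) was present in all 6 cell types, from 326 CPM in VSMCs to 880 CPM in venous VECs in Control and from 260 to 571 CPM in AngII+HS. It was 1.85-fold lower in LECs, at 701 and 380 CPM (log2 ratio -0.88, interval -1.07 to -0.70), and 1.66-fold lower in venous VECs, at 880 and 530 CPM (-0.73, interval -0.86 to -0.60). Arterial VECs held 831 CPM in Control and 571 CPM in AngII+HS, short of the 1.5-fold limit with a log2 ratio of -0.54 (-0.64 to -0.44). Capillary VECs, at 434 and 383 CPM, and pericyte-like cells, at 412 and 408 CPM, had intervals of the log2 ratio that held 0. The venous ratio was -0.40, under the limit, when every cell had equal weight, and the LEC ratio was -0.55 in cells low in immediate early genes. T and B cells held 61.0 and 39.4 CPM of *Bmpr2*, also lower in AngII+HS.

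The ID genes differed in where they were expressed and in what changed. *Id1* (chromosome 2: 152566218 to 152579544) was highest in capillary VECs, at 1533 CPM in Control (1440 to 1630) and 1572 CPM in AngII+HS (1510 to 1635), a log2 ratio of 0.04 with an interval of -0.07 to 0.14. Arterial VECs followed with 902 CPM in Control and 622 CPM in AngII+HS (log2 ratio -0.54, interval -0.64 to -0.44). In venous VECs *Id1* stood at 343 and 538 CPM (log2 ratio 0.65, interval 0.47 to 0.84), and in LECs at 324 and 573 CPM (0.82, interval 0.63 to 1.01). The share of cells with an *Id1* UMI was 53.9% and 54.8% in venous VECs and 55.8% and 49.7% in LECs. These shares depend on depth, which in LECs was a median of 6399 and 4157 UMIs per cell. The thinned shares, 25.3% and 29.7% in venous VECs and 22.1% and 26.7% in LECs, were higher in AngII+HS but overlapped in their intervals. In LECs the log2 ratio was 0.46 with no doublets removed and 0.42 with double their number removed, and in venous VECs it was 0.33 with equal weight per cell and 0.35 with double the doublets removed, all under the 1.5-fold limit. In pericyte-like cells *Id1* was 2.39-fold lower, at 565 CPM in Control (525 to 606) and 236 CPM in AngII+HS (208 to 266), and the thinned share was 37.2% and 18.5% with intervals apart. VSMCs held 627 and 573 CPM (log2 ratio -0.13, interval -0.18 to -0.08).

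*Id2* (chromosome 12: 25143798 to 25147282) was higher in the mural cells than in the endothelium of the Control library. There it stood at 685 CPM in pericyte-like cells and 629 CPM in VSMCs, against 234 CPM in arterial VECs, 125 CPM in capillary VECs, 103 CPM in venous VECs and 73.6 CPM in LECs. In AngII+HS it was lower in pericyte-like cells, at 277 CPM (log2 ratio -1.30, interval -1.49 to -1.12), and higher in arterial VECs, at 434 CPM (0.89, interval 0.74 to 1.04). VSMCs held 423 CPM in AngII+HS, 1.49-fold lower and so just inside the limit. The thinned share of arterial cells with an *Id2* UMI was 20% (16.5 to 23.8%) in Control and 30.9% (26.1 to 35.9%) in AngII+HS. Macrophages held 589 and 745 CPM and T cells 605 and 440 CPM. In arterial VECs the 7 macrophage markers summed to 22.0 and 86.1 CPM and the 5 neutrophil markers to 9.50 and 212 CPM, and their part in the *Id2* ratio was not tested.

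*Id3* (chromosome 4: 135870808 to 135873066) was highest in pericyte-like cells of both libraries and was lower in VSMCs of AngII+HS. In Control it stood at 2133 CPM in pericyte-like cells and 1896 CPM in VSMCs (1884 to 1907), against 832 to 1096 CPM in the 4 endothelial types. In AngII+HS, VSMCs held 1037 CPM (1012 to 1062), 1.83-fold lower (log2 ratio -0.87, interval -0.91 to -0.83), and pericyte-like cells 1987 CPM (log2 ratio -0.10). The thinned share of VSMCs with an *Id3* UMI was 74.9% (73.7 to 76.1%) in Control and 49.5% (46.0 to 52.9%) in AngII+HS, against 11% and 7.73% of T and B cells. B cells held *Id3* at 147 and 93.0 CPM and T cells at 70.7 and 65.8 CPM. Whether this was free RNA or their own expression was not tested. All 3 VSMC clusters showed the lower *Id3* of AngII+HS. The largest, with 4148 Control and 532 AngII+HS cells, held 1908 and 1144 CPM. Another, with 822 and 95 cells, held 1924 and 806 CPM, and the last, a shallow cluster led by *Erbb4* with 494 and 262 cells, held 1549 and 429 CPM. In venous VECs *Id3* was 832 and 547 CPM, just past the limit at 1.52-fold lower, but the log2 ratio was -0.48 with equal weight per cell and -0.23 in the cells low in immediate early genes. Arterial VECs held 1096 and 1104 CPM, a log2 ratio of 0.01 with an interval of -0.07 to 0.09.

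Of the inhibitory SMAD genes, *Smad6* (chromosome 9: 63860341 to 63929793) was highest in arterial VECs and *Smad7* was spread over most cell types. *Smad6* stood at 224 CPM (206 to 243) in arterial VECs of Control and at 415 CPM (388 to 444) in AngII+HS, a log2 ratio of 0.89 with an interval of 0.74 to 1.05. The thinned share of arterial cells was 19.5% (16.1 to 23.4%) and 31.7% (26.9 to 36.7%). The other endothelial types held at most 104 CPM in Control and 132 CPM in AngII+HS, both in capillary VECs, where the interval of the log2 ratio held 0. In LECs the counts were 26 and 9 UMIs, and although the ratio passed the limit its interval of -2.27 to 0.14 held 0. In pericyte-like cells *Smad6* was 47.8 and 26.1 CPM on 64 and 29 UMIs (log2 ratio -0.87, interval -1.56 to -0.22), but the thinned shares of 3.05% and 2.78% overlapped.

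*Smad7* was 2.90-fold lower in LECs, at 458 CPM in Control (421 to 497) and 158 CPM in AngII+HS (133 to 187), with a log2 ratio of -1.53 (-1.82 to -1.26). The thinned share of LECs with a UMI was 21.3% (14.8 to 29.2%) and 9.59% (5.34 to 15.6%), with overlapping intervals. In the other 5 endothelial and mural types it stayed within 1.5-fold. Arterial VECs held 452 and 485 CPM, capillary VECs 418 and 300 CPM, venous VECs 287 and 249 CPM, VSMCs 375 and 300 CPM, and pericyte-like cells 321 and 227 CPM.

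Each VEC type is the sum of its subclusters, which are given separately here, since a change in the mix of cells would move a sum. Clustering of all VECs without the members and without the subtype markers gave 3 arterial, 2 capillary and 2 venous subclusters. No marker of the own subtype was among the 10 leading genes of arterial 1 and 2, capillary 2 and the smaller venous subcluster. *Bmp4* was higher in arterial subcluster 1 (302 Control and 183 AngII+HS cells), at 483 and 1177 CPM, and in arterial subcluster 2 (112 and 136 cells), at 348 and 777 CPM. In arterial subcluster 3 (72 and 59 cells), whose leading genes include *Sema3g* and *Alpl*, it was low and went the other way, at 112 and 46.8 CPM on 41 and 12 UMIs. *Bmp6* was higher in arterial 1, at 998 and 2065 CPM, was within 1.5-fold in arterial 2, at 911 and 1079 CPM (log2 ratio 0.24), and was lower in arterial 3, at 245 and 144 CPM (-0.77). *Eng* was higher in arterial 1, at 141 and 590 CPM, and in arterial 2, at 335 and 707 CPM, and was just inside the limit in arterial 3, at 583 and 869 CPM (log2 ratio 0.58), so the subcluster lowest in Control had the largest ratio (log2 2.06, interval 1.81 to 2.33). *Id2* and *Smad6* were past 1.5-fold in arterial 1 and 2 and not in arterial 3, where *Id2* was 223 and 203 CPM and *Smad6* 223 and 269 CPM. *Id1* was lower in arterial 1 and 2, at 972 and 575 CPM and at 838 and 555 CPM, and was 864 and 1029 CPM in arterial 3. Whether the ratios differ between subclusters was not tested.

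The level of *Acvrl1* was below that of Control in each of the 7 VEC subclusters, within 1.5-fold in arterial 3, and the interval of its log2 ratio lay below 0 in 5 of them. The levels were 184 and 101 CPM, 218 and 78.5 CPM, and 327 and 261 CPM in the arterial subclusters, 159 and 71.2 CPM and 198 and 113 CPM in the capillary ones, and 145 and 49.0 CPM and 182 and 94.8 CPM in the venous ones. Capillary subcluster 2, led by *Inhbb* and *Hilpda*, held 12 Control and 227 AngII+HS cells and so was close to a single library. Its *Bmp6* level in AngII+HS was 111 CPM against 250 CPM in capillary subcluster 1, which itself held 474 CPM in Control. Without subcluster 2 the log2 ratio of *Bmp6* in capillary VECs was -0.92. The higher *Id1* of venous VECs was seen in the larger venous subcluster (104 and 291 cells), at 259 and 539 CPM, while the smaller one (63 cells in each library) held 557 and 521 CPM. The larger one was also lower in *Bmp4* (83.6 and 52.7 CPM), *Bmp6* (86.8 and 26.1 CPM) and *Bmpr2* (909 and 508 CPM). In the smaller one these genes were not lower, at 202 and 210, 166 and 203, and 807 and 839 CPM. The part of the mix of subclusters in the venous sums was not tested.

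**Figure D3:**
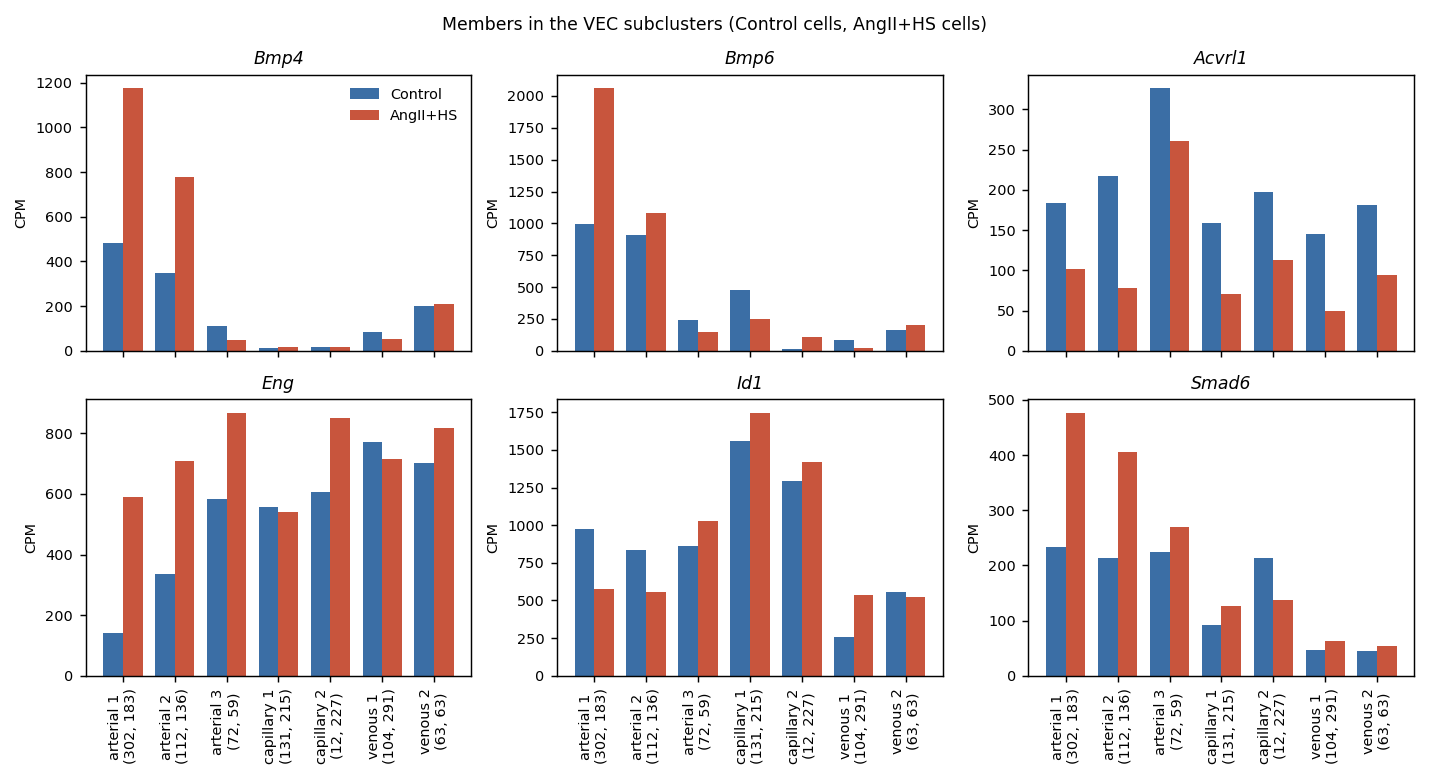
Levels of Bmp4, Bmp6, Acvrl1, Eng, Id1 and Smad6 in CPM in 7 VEC subclusters, Control and AngII+HS, as bars without intervals. The level of Acvrl1 is below that of Control in all 7 subclusters, Bmp4 is higher in arterial 1 and arterial 2 and Bmp6 in arterial 1, and neither is higher in arterial 3.

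The pericyte-like cells also split into 3. A subcluster with *Kcnj8*, *Abcc9* and *Vtn* (38 Control and 93 AngII+HS cells) held 231 and 80.5 CPM of *Id1* and 550 and 225 CPM of *Id2*. A subcluster with *Kcnj8* at only 7.87 and 4.89 CPM (78 and 123 cells) held 535 and 362 CPM of *Id1* and 671 and 320 CPM of *Id2*. The last subcluster had 48 cells, all from the Control library, with 802 CPM of *Id1* and 784 CPM of *Id2*. In the 2 subclusters shared by the libraries, *Id2* was thus lower in both (log2 ratios -1.29 and -1.07), while *Id1* was lower in the *Kcnj8* subcluster (-1.52) and just inside the limit in the other (-0.56). With double the doublets removed, a VSMC cluster took the pericyte-like name and the ratios over those cells were -0.13 for *Id1* and -0.42 for *Id2*. *Eng* was 34.6 and 78.5 CPM in the *Kcnj8* subcluster and 23.6 and 48.9 CPM in the one with little *Kcnj8*, on 9 to 39 UMIs per library. *Bmp6* was 19.2 and 22.1 CPM in the *Kcnj8* subcluster and 51.9 and 86.4 CPM in the one with little *Kcnj8*.

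Several other quantities moved with the libraries. A list of 14 immediate early genes, which enzymatic dissociation can induce, was lower in AngII+HS in all 6 cell types, from 18374 to 8960 CPM in venous VECs, from 28657 to 14484 CPM in VSMCs, from 22477 to 14221 CPM in pericyte-like cells, and from 26060 to 19352 CPM in LECs. In arterial VECs it was 19364 and 14799 CPM and in capillary VECs 24286 and 20727 CPM. In the cells at or under the median of these genes, the arterial ratios were 1.67 for *Eng* and 0.89 for *Bmp6* on the log2 scale, and the *Id1* ratio of pericyte-like cells was -0.69. The summed level of the 7 fibroblast markers, all of them detected, was higher in AngII+HS in all 6 cell types, from 383 to 1066 CPM in arterial VECs, from 146 to 672 CPM in capillary VECs and from 2487 to 5285 CPM in VSMCs. Most of the VSMC sum was *Col1a1*, *Col3a1* and *Col1a2*, and *Pdgfra* alone was lower there. In LECs *Dcn* (202 and 93.7 CPM), *Pi16* and *Pdgfra* were lower and the other genes of the list higher. The 4 erythroid markers went from 30.2 to 1749 CPM in capillary VECs and from 170 to 50.9 CPM in VSMCs. The part of these lists in the ratios of the members was not tested. The shares of VSMCs among the cells differed as given above, and a different choice of VSMCs captured cannot be told apart from a difference within the cells.

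Some members were also expressed outside these 6 cell types. *Bmp4* stood at 73.2 CPM in Control and 40.4 CPM in AngII+HS in fibroblasts, *Bmp6* at 13.6 and 4.51 CPM, and *Bmpr2* at 473 and 264 CPM (log2 ratios -0.86, -1.59 and -0.84). *Id3* was also high in fibroblasts, at 1684 and 1400 CPM, and in neural cells, at 854 and 1120 CPM. *Smad7* stood at 539 and 436 CPM in T cells, and *Id2* was highest in dendritic cells of Control (775 CPM) and in macrophages of AngII+HS (745 CPM). *Eng* stood at 27.6 and 64.6 CPM in neural cells, on 13 and 80 UMIs.

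**Figure D4:**
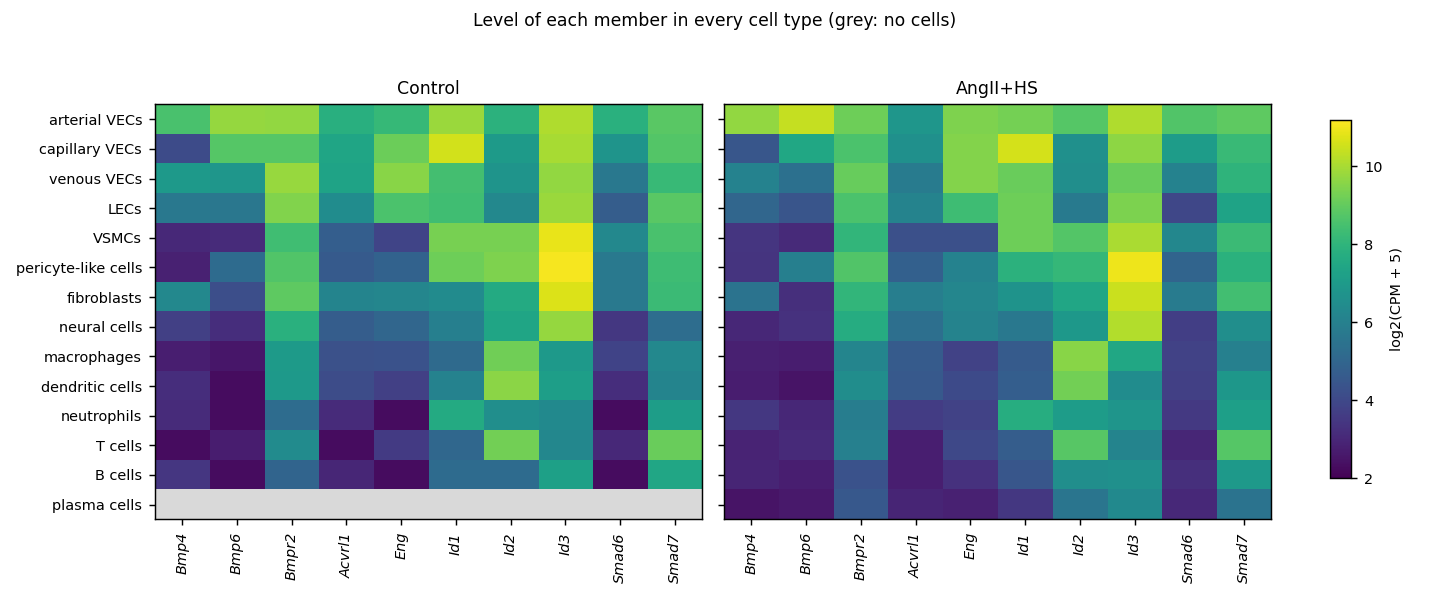
Heat maps of log2(CPM + 5) of the 10 members over 14 cell types in each library, with grey where a library has no cells of the type. Bmp4, Bmp6, Eng and Smad6 are highest in endothelial types, Id3 in pericyte-like cells, and Id2 and Smad7 reach into immune cells.

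Around the members, 69 further genes of the pathway were read by role. Most ligands of the family were scarce, and *Bmp10* and *Gdf2*, the circulating ligands of ALK1 made in heart and liver, had 0 and 2 UMIs over the endothelial, mural, T and B cells of both libraries. The ligand list includes *Bmp1*, which encodes a protease and not a ligand. *Bmp1* was among the genes counted below as higher in arterial VECs, venous VECs, VSMCs and pericyte-like cells. Of the 6 genes of this list with at least 20 UMIs in arterial VECs, 4 were higher, 1 was lower and 1 lay between. Capillary VECs had 2 of 3 higher and none lower, venous VECs 3 of 5 higher and 1 lower, LECs 2 of 5 higher and 1 lower, VSMCs 2 of 8 higher and 2 lower, and pericyte-like cells 3 of 6 higher and 2 lower. *Gdf15*, a stress-induced cytokine of the family, was 59.3 and 164 CPM in arterial VECs and 213 and 579 CPM in LECs, and had 0 UMIs in Control against 53 in AngII+HS in venous VECs. *Inhbb*, which encodes an activin subunit, was 70.9 and 203 CPM in capillary VECs and 20.4 and 84.7 CPM in venous VECs. *Inhba*, the other main activin subunit, was 45.4 and 7.86 CPM in venous VECs. In VSMCs *Bmp2* was 78.3 and 32.8 CPM, on 4262 and 212 UMIs. *Bmp1*, a protease that processes procollagen and chordin, was 23.2 and 46.7 CPM in arterial VECs, 9.08 and 47.1 CPM in venous VECs (on 8 and 108 UMIs) and 32.1 and 74.8 CPM in pericyte-like cells. *Gdf6* was 3.80 and 29.2 CPM in arterial VECs, on 10 and 60 UMIs. *Gdf10* was 58.3 and 18.9 CPM in pericyte-like cells and 8.01 and 19.5 CPM in VSMCs. T and B cells, the measure of free RNA, held *Gdf15* at 2.14 and 15.0 CPM, *Gdf10* at 1.07 and 10.3 CPM and *Inhba* at 2.14 and 8.52 CPM. The AngII+HS levels of venous *Gdf15* (23.1 CPM), venous *Inhba* and mural *Gdf10* were thus not far from that measure.

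The remaining receptors and the signal transducers mostly stayed within 1.5-fold. None of 8 receptors was past 1.5-fold in arterial VECs and none of 9 in venous VECs, 1 of 8 was lower in capillary VECs (*Bmpr1a*, on 12 and 9 UMIs), and 1 was higher and 1 lower of 7 in LECs. VSMCs had 3 of 10 lower, among them the type I receptor *Bmpr1b* at 61.8 and 32.9 CPM and the co-receptor *Tgfbr3* at 96.4 and 46.7 CPM. Pericyte-like cells had 1 of 9 higher and 1 lower. The signal transducers, which include the receptor-regulated SMADs and *Smad4*, were within 1.5-fold in every type (6 genes in each endothelial type and 8 in VSMCs) except pericyte-like cells, where *Smad2* was higher at 23.2 and 51.3 CPM, on 31 and 57 UMIs.

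Genes listed as inhibitors of the pathway, not all of which act on the ligands, went both ways. In arterial VECs 2 of 13 were higher and 3 lower, with the chordin-like gene *Vwc2* at 33.1 and 6.32 CPM. In venous VECs 1 of 10 was higher and 4 lower, among them *Crim1*, a membrane protein that binds BMPs, at 1035 and 584 CPM. Capillary VECs had 1 of 9 higher and 2 lower, and LECs 2 of 11 higher and 2 lower. In VSMCs 4 of 17 were higher and 2 lower, with the secreted protease *Htra1* at 234 and 534 CPM and *Bambi*, a decoy receptor, at 66.9 and 35.6 CPM. In pericyte-like cells 2 of 16 were higher and 6 lower, among them follistatin (*Fst*) at 364 and 192 CPM and *Ltbp1*, which anchors latent TGF-beta, at 518 and 183 CPM. *Ltbp1* went the other way in VSMCs, at 828 and 1277 CPM.

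Other targets and partners of the pathway were higher in arterial VECs more often than lower, with 8 of 14 higher and none lower. They included the Notch and BMP target *Hey1* at 11.8 and 45.2 CPM, the endothelial guidance receptor *Unc5b* at 18.2 and 45.2 CPM, and *Tcf4*, a basic helix-loop-helix partner that ID proteins bind, at 452 and 816 CPM. In venous VECs 5 of 11 were higher and 2 lower, with *Tcf4* at 1208 and 2410 CPM. Capillary VECs had 2 of 11 higher and 4 lower, LECs 1 of 10 higher and none lower, and VSMCs 2 of 15 higher and none lower. In pericyte-like cells 6 of 13 were higher and 3 lower, among them *Tmem100*, an ALK1 target in endothelium, at 14.2 and 53.2 CPM, and *Hey2* at 93.4 and 38.7 CPM. *Tmem100* was also among the 10 leading genes of a fibroblast cluster. Fibroblast markers were higher in these cells too (*Dcn* 113 and 180 CPM), and their part in the *Tmem100* difference was not tested. The lists of pathway genes are read beside the shares of all genes given above for each cell type.

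**Figure D5:**
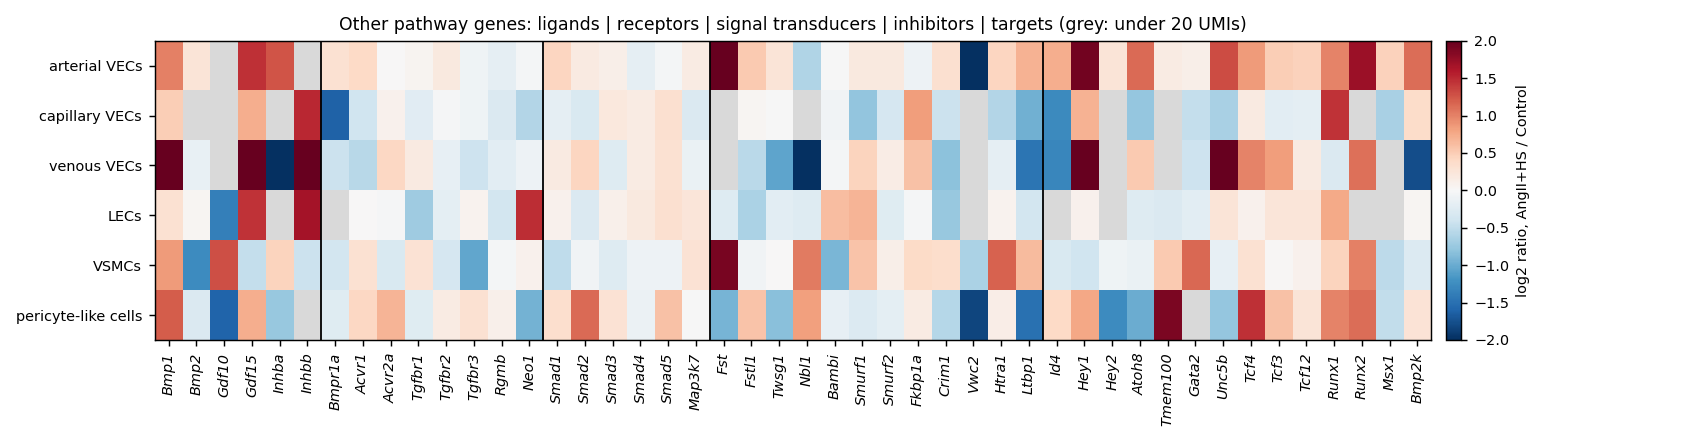
Log2 ratios, AngII+HS over Control, of the other pathway genes with at least 20 UMIs in 3 or more of the 6 cell types, ordered as ligands, receptors, signal transducers, inhibitors and targets, with grey where a gene had under 20 UMIs. Receptors and signal transducers are pale in most cells, whereas ligands such as Gdf15 and targets such as Tcf4 stand out as higher in several types.

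The genes whose levels were most like each member were found over 27 sums (cell type by library) and 8331 genes, by Pearson correlation of log2(CPM + 5). The sums share libraries and depth, so these are descriptions. *Eng* was followed most closely by *Bvht* (r = 0.979) and *Ecscr* (0.946). *Id3* was most like *Gadd45g* (0.970), *Bmpr2* most like *Tcf7l1* (0.942) and *Bmp4* most like *Tmem158* (0.932). *Smad6* was most like *Mecom* (0.920), *Acvrl1* most like *Ptprm* (0.913), *Id1* most like *Cdh13* (0.910) and *Bmp6* most like *Esam* (0.903). *Smad7*, with *F2r* at 0.820, and *Id2*, with *S100a4* at 0.732, had the least close neighbours.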

How the data were processed

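The authors counted reads with Cell Ranger (8.0.1 in the matrix headers, an earlier version in the study's methods) on the mouse genome and deposited raw UMI counts per gene and cell barcode for 33696 genes, without normalization. The build is GRCm39 in the methods and mm10 in the submitters' processing notes, and 33185 feature identifiers matched the GENCODE annotation on GRCm39, from which coordinates were taken. Both libraries were taken as deposited, 1 per condition.

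The filter on cells asked for a minimum of 500 UMIs and 200 genes and a mitochondrial share under 20%. Doublets were scored with Scrublet (scanpy 1.11.5) and removed at 0.8% per 1000 cells (1019 Control and 4826 AngII+HS cells). The libraries were integrated with Seurat 5.3.0 on 2000 variable genes without the members and the 69 other pathway genes, with 30 components. Louvain clusters were taken at resolution 0.8, and for VECs alone at 0.4 with 20 components and no subtype markers. A cluster took the name of its highest-scoring marker list (5 CPM added) if at least 3 markers were in at least 10% of its cells and its 10 leading genes did not favour another type, a rule settled after the clusters had been seen. Small VEC subclusters of 39 and 32 cells stayed unnamed and are in no VEC type.

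For each cell type in a library, UMIs were summed and divided by the total, as CPM, with 0.5 UMIs added for medians and calls. For shares, cells were thinned to 1000 UMIs. With 1 library per condition no p-value was computed, and replicate error is unknown. The ratios were tried on simulated Poisson counts of arterial VECs with 200 genes changed 2-fold. The interval held the true ratio for 98% of these genes. The counts were drawn with counting error only, so the run does not cover variation between cells or mice. The named genes are all members and, of the other pathway genes with at least 50 UMIs over the endothelial or mural cells, examples chosen after their values were seen. *Bmp10* and *Gdf2* are named outside this rule. The members and lists were chosen with earlier results of these data known. Alternatives were other doublet numbers, a stricter filter (1000 UMIs, 500 genes, 10%), resolutions 0.4 and 1.2, merging without integration, keeping the pathway genes, scaling without mitochondrial genes, by TMM (edgeR 4.0.16) or by DESeq2 1.42.0 size factors, equal weight per cell, thinning, subtraction of free RNA, other UMI minimums and cells low in immediate early genes. Leaving out the *Erbb4*-led VSMC cluster, leaving out capillary subcluster 2, and using only the *Kcnj8* pericyte-like subcluster were added after seeing the data. Work was done in Python 3.11.15 (numpy 2.4.6, scipy 1.17.1, pandas 2.3.3, matplotlib 3.10.9) and R 4.3.3.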

Additional observations from a re-analysis of the deposited data

Results flagged for a closer look

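Of the 10 members, 5 went past the 1.5-fold limit in opposite directions in different cell types (log2 ratios with 0.5 UMIs added to each sum). The same count over all genes was not made, so this number is not read as a trait of the members. Many genes passed the limit within a single cell type, with 28.8% of genes higher and 15.2% lower in venous VECs. *Bmp4* was 1.16 in arterial VECs and -0.90 in venous VECs. *Bmp6* was 0.84 in pericyte-like cells and -1.54 in venous VECs. *Id1* was 0.82 in LECs and -1.26 in pericyte-like cells. *Id2* was 0.89 in arterial VECs and -1.30 in pericyte-like cells. *Smad6* was 0.89 in arterial VECs and -0.95 in LECs, the latter on 26 and 9 UMIs. Each value compares 1 library with 1 library, and the difference between the cell types was not tested.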

How the results depend on the processing

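Of the 28 ratios of at least 1.5-fold, 27 kept their direction under every alternative that gave a value, and 13 were at least 1.5-fold under all of them. These 13 were *Bmp4*, *Acvrl1*, *Eng*, *Id2* and *Smad6* in arterial VECs, *Bmp6* in capillary VECs, *Bmp6* and *Acvrl1* in venous VECs, *Bmp6*, *Smad6* and *Smad7* in LECs, *Id3* in VSMCs and *Eng* in pericyte-like cells. The other 15 each came under the limit in at least 1 alternative. Some alternatives could hardly differ from the main result. Other UMI minimums change only which genes enter a median and not a ratio. Resolutions 0.4 and 1.2 gave the same cell numbers as the main run in every endothelial type. The one that turned was *Smad6* in pericyte-like cells, at 0.10 with double the number of doublets removed, where a VSMC cluster joined the pericyte-like cells (2767 Control and 382 AngII+HS cells). With no doublets removed no pericyte-like cluster was named, so that alternative gave no value there. The median over the members stayed above 0 in arterial VECs, where it was 0.77 with free RNA subtracted and 0.57 in cells low in immediate early genes. It stayed below 0 in venous VECs, where it was -0.84 with free RNA subtracted, and in VSMCs, where it was -0.33 with the stricter filter and -0.37 without the *Erbb4*-led cluster. In pericyte-like cells it lay between -0.24 and 0.07 and so had no settled sign. The causes were not tested. Subtraction of the T and B cell level cannot be used for *Id2* and *Smad7*, which lymphocytes express. It gave 9.63 for *Id2* in arterial VECs and -6.55 for *Smad7* in LECs. Both genes are in the medians with free RNA subtracted, so those medians are no check on the sign or the size. Without integration arterial VECs held 229 Control cells. No paired analysis was possible because each condition is 1 library. Counting error is large for *Bmp4*, *Bmp6* and *Smad6* in LECs, *Bmp4* in capillary VECs and *Acvrl1* and *Bmp4* in pericyte-like cells, at 58 UMIs or fewer per library.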
